A study of Homo sapiens with 4 samples.

Results

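The guanylate-binding proteins (GBPs) are large GTPases that lie side by side in 1 cluster on human chromosome 1. The rule took the 7 protein-coding genes GBP1 to GBP7 and the transcribed pseudogene GBP1P1, 8 of the 58812 Ensembl genes listed in the files, and each matched 1 gene ID by its symbol. Expression was measured by total RNA sequencing after ribosomal RNA depletion in A549, an established human lung carcinoma epithelial line. Wild-type cells received 1 µg of plasmid and were collected 24 hr later. The plasmid was either empty pCMV6-Entry, the control (n = 2 libraries), or carried Myc-DDK-tagged SAMD9, the overexpression group (n = 2 libraries). The labels name no other treatment, and no interferon was listed as added.

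GBPs are among the classical products of interferon signalling: interferon-gamma, through IRF1 among other factors, and more weakly the type I interferons switch on their transcription. Their GTPase domain drives assembly into polymers, and GBP1, GBP2 and GBP5 carry a C-terminal lipid anchor. In infected cells they coat bacteria and pathogen vacuoles, and on Gram-negative bacteria the GBP1 coat, joined by GBP2 to GBP4, activates caspase-4. GBP2 and GBP5 also dampen the protease furin, and in epithelial cells interferon-induced GBPs act as a cell-autonomous defence.

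The start regions of the genes are shown first, because the members differed in their response and interferon-driven promoters carry short recognisable motifs. The reference table (RefSeq, GRCh38.p14) held a 300-base window, from 250 bases before to 50 bases after the gene start, for 5 of the 8 members. Capitals mark matches to the core of the interferon-stimulated response element (ISRE; GAAA, any pair of bases, then GAAA, read on either strand), which is bound by IRF proteins, and to the gamma-activated site (GAS; TTC, any 3 bases, then GAA), a short element known from interferon-gamma responsive genes. GBP1, GBP3 and GBP4 are shown as members with a match and GBP7 and GBP6 as members without one.

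GBP1 (chr1:89065159-89065458, minus strand): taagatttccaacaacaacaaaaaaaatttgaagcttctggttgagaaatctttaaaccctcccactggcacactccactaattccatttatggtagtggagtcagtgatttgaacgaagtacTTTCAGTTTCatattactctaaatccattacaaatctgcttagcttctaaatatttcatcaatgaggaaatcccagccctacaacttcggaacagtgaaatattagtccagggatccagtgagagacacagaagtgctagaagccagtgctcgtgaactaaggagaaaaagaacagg

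GBP3 (chr1:89022817-89023116, minus strand): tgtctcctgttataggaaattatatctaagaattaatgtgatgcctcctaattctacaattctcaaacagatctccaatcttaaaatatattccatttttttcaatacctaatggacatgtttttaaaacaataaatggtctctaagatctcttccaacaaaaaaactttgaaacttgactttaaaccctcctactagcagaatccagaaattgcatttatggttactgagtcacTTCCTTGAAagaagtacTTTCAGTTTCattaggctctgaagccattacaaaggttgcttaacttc

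GBP4 (chr1:89198893-89199192, minus strand): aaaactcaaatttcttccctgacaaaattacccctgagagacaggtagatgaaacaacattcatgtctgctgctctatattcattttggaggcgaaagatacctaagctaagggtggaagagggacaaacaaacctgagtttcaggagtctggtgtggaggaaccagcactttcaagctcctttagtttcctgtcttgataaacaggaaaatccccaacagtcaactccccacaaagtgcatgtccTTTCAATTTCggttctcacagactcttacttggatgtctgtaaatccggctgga

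GBP7 (chr1:89175954-89176253, minus strand): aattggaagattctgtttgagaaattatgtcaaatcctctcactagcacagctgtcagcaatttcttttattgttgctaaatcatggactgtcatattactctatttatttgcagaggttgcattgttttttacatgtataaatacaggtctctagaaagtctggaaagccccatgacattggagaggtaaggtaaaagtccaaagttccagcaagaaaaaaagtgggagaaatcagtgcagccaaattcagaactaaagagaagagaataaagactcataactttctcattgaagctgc

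GBP6 (chr1:89363809-89364108, plus strand): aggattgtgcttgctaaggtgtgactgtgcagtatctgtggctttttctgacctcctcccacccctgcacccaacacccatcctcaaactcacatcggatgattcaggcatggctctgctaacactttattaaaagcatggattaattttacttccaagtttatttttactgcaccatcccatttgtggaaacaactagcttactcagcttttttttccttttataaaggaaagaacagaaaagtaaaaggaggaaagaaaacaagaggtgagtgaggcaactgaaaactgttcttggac

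The ISRE core was present in the windows of GBP1 (bases 124 to 133 of the window), GBP3 (bases 253 to 262) and GBP4 (bases 247 to 256), each time read from the opposite strand, which puts it in the printed strand as TTTCAGTTTC in GBP1 and GBP3 and TTTCAATTTC in GBP4. Of all 35116 tabulated windows, 3.57% held that core. The longer form, with a further C at the end, was in none of the 5 member windows and in 0.795% of all windows. GBP3 also held 1 GAS match (bases 236 to 244) that did not overlap its ISRE core, and 7.66% of all windows held the GAS letters. The windows of GBP1 and GBP3 had a run of 19 identical bases that contains the core, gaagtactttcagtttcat, and no pair among the other 9 pairs of windows shared a run of more than 13. The gene model in the deposited files began 152 bases upstream of the RefSeq start of GBP1, and the listed starts of GBP3, GBP4, GBP7 and GBP6 were at most 37 bases from the RefSeq ones. The cores of GBP1 and GBP3 and the GAS match of GBP3 lie downstream of the listed starts, and the core of GBP4 lies across the RefSeq start and upstream of the listed one. The letters describe these windows only.

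The cluster runs over 420 kb, from 89006666 to 89426243 on chromosome 1 (GRCh38), in the order GBP3, GBP1, GBP2, GBP7, GBP4, GBP5, GBP6 and GBP1P1. The first 6 in that order are on the minus strand, and GBP6 and GBP1P1 are on the plus strand. GBP2 and GBP7 overlap on the same strand and share 621 exonic bases, which is 25.3% of the exonic length of GBP7 and 9.89% of that of GBP2. The exons of GBP3 cover 66 bases of a Y RNA gene, and an antisense gene without counts lies within the exons of GBP5.

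As a check of the labels, SAMD9 itself had 444 and 400 counts in the controls and 220123 and 184350 after SAMD9 transfection (log2 fold change 8.88, SE 0.08). Library totals were between 29301854 and 39670083 counts, and levels are given as TMM-normalised CPM, the count scaled to a common library size, in which 1 count was worth 0.0268 to 0.0349 CPM. The A549 keratins KRT8, KRT18 and KRT7 were abundant in all 4 libraries. KRT19 and the alveolar markers SFTPC, SFTPA1 and NKX2-1 had at most 10 counts in each. Across the libraries NAPSA ranged from 28 to 75 counts and SFTPB from 2 to 38. Of the 11 epithelial markers listed, 7 could be tested, of which 2 rose and 5 did not pass. CDH1 rose by 0.89 on the log2 scale (SE 0.08, edgeR adjusted p = 5.0e-09) and KRT8 by 0.40 (SE 0.05, adjusted p = 9.7e-07). Leukocyte markers, which matter because leukocytes are rich in GBPs, had a summed level of 7.17 to 7.51 CPM with empty vector and 7.86 to 7.91 CPM with SAMD9 over 13 genes. Of these, 5 could be tested, and none passed in edgeR (1 at an unadjusted p below 0.05, lowest adjusted p 0.094). PTPRC, the pan-leukocyte marker CD45, was at 0 in both controls and at 0 and 3 counts after SAMD9. The highest of the 13 were CD14, with 88 and 67 counts in the controls and 99 and 60 after SAMD9, and ITGAM, with 90 and 118 against 142 and 122. The summed level of 8 fibroblast markers was 1.85 and 2.99 CPM with empty vector and 6.54 and 6.53 with SAMD9, where COL1A1 rose (log2 fold change 1.60, SE 0.25, edgeR adjusted p = 3.6e-05), and its part in the results was not tested. DCN had 0 counts in all 4 libraries. The 7 endothelial markers summed to between 1.13 and 1.60 CPM in each library.

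Across the family, 7 of the 8 members passed the filter on low counts, and all 7 rose with SAMD9 (quasi-likelihood test in edgeR, p adjusted by Benjamini-Hochberg over 19814 genes, threshold 0.05). GBP6 had too few counts to be tested. Of all genes tested, 15.3% were called higher and 12.2% lower. In each of the 7, both SAMD9 libraries were above both empty vector libraries, as they were in 31.1% of all genes tested. All 7 had a log2 fold change of at least 2.5, which was reached by 2.44% of genes tested as called higher, and 4 of them, GBP1, GBP4, GBP5 and GBP1P1, had one of at least 7, reached by 0.363% (both thresholds were set after the values were seen). The median log2 fold change of the 7 was 7.59, or 7.42 with the members without control counts at their lower bound, against -0.01 for all genes tested. Members that had low counts with empty vector passed the filter through the SAMD9 libraries, so these counts do not stand for the family on their own. RNA of bulk cultures cannot tell more expressing cells from more RNA in each cell.

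**Figure D1:**
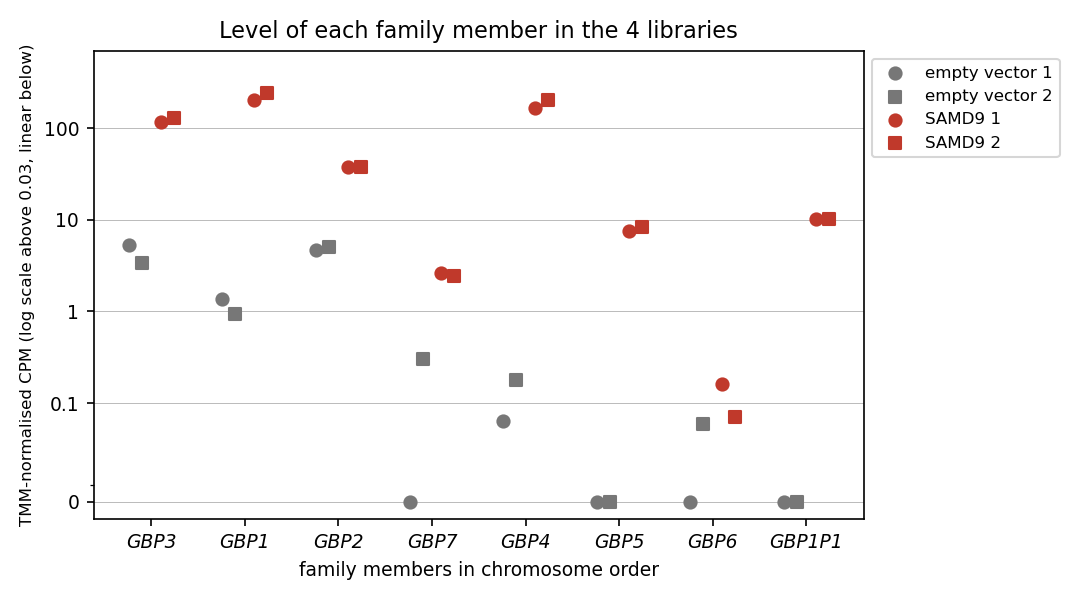
Level of the 8 family members in TMM-normalised CPM (vertical axis, logarithmic above 0.03 and linear below), in chromosome order, with 1 point per library (grey, empty vector; red, SAMD9). For 7 members the red points lie well above the grey ones, and GBP6 stays at or below 0.161 CPM in every library.

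GBP1 (ENSG00000117228, bases 89052319 to 89065360 of chromosome 1), the member that starts the coat on bacterial surfaces, was counted 43 and 31 times in the controls and 7610 and 6865 times after SAMD9 transfection. This gave 1.37 and 0.926 CPM against 204 and 239.8 CPM, a mean of 1.15 ± 0.317 (SD, n = 2) against 222 ± 25.3 (SD, n = 2). The groups did not overlap, and the gap between them was far wider than the spread within either. The log2 fold change was 7.59 (SE 0.13, edgeR adjusted p = 3.9e-22), a 193-fold rise. Of the 31-mers of GBP1 transcripts, 18.4% also occur in another member, chiefly GBP1P1 (10.7%) and GBP3 (8.46%), so a part of the division of counts among these genes is uncertain.

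GBP3 (ENSG00000117226, bases 89006666 to 89022894 of chromosome 1), the neighbour of GBP1 and a member recruited to its coats, started from a higher level. Its counts were 165 and 113 in the controls and 4379 and 3698 after SAMD9, or 5.27 and 3.38 CPM against 117 and 129 CPM. Both SAMD9 libraries were far above both controls, and relative to their own mean the control libraries lay farther apart than the SAMD9 libraries. Its log2 fold change was 4.84 (SE 0.13, adjusted p = 8.4e-19), a 28.6-fold rise.

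GBP2 (ENSG00000162645, bases 89106132 to 89150456 of chromosome 1), which is prenylated and found on the Golgi and on pathogen vacuoles, was counted 147 and 169 times in the controls and 1399 and 1087 times after SAMD9. Its level was 4.70 and 5.05 CPM against 37.5 and 37.97 CPM, with little spread within either group. The log2 fold change was 2.95 (SE 0.12, adjusted p = 7.1e-15), a 7.73-fold rise. GBP2 thus had a control level close to that of GBP3 and a smaller fold change. Per length, GBP3 stood at 1.64 and 0.977 times GBP2 in the controls and at 4.57 and 4.97 times after SAMD9. The ratios did not overlap, with an exact two-sided permutation p of 0.333, the smallest that 2 against 2 libraries can give.

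GBP7 (ENSG00000213512, bases 89131751 to 89176040 of chromosome 1), whose body overlaps GBP2, was counted 0 and 10 times in the controls and 99 and 70 times after SAMD9. The level was 0 and 0.299 CPM against 2.65 and 2.45 CPM, so that all 10 control counts came from 1 library. The log2 fold change was 4.02 (SE 0.61, adjusted p = 2.2e-05), and the ratio of summed counts, here and below scaled to the normalised library sizes, was 16.6 with an exact counting interval from 8.81 to 35.2. The call was lost with DESeq2 (log2 fold change 4.09, adjusted p = 0.134), against an adjusted p of at most 6.0e-05 in the other 8 alternatives. Without empty vector replicate 1 the log2 fold change was 3.08, and without empty vector replicate 2, which leaves a control with no counts, it was 9.37. Of the 31-mers of GBP7, 24.2% occur in GBP2. The counts of GBP7 were 7.08% and 6.44% of those of GBP2 in the SAMD9 libraries and 0% and 5.92% in the empty vector libraries. The part that reads of GBP2 play in the counts of GBP7 was not tested.

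GBP4 (ENSG00000162654, bases 89181148 to 89198932 of chromosome 1), which joins GBP1 coats and is not prenylated, was nearly absent with empty vector, with 2 and 6 counts, and had 6129 and 5866 counts with SAMD9. The level went from 0.0639 and 0.179 CPM to 164 and 205 CPM. Per length it was under GBP2 and GBP3 in both controls, and after SAMD9 it was above GBP2 in both libraries and overlapped GBP3. The log2 fold change was 10.50 (SE 0.19, adjusted p = 1.3e-21). With 8 control counts in all, the scaled ratio of summed counts was 1473 with an exact counting interval from 747 to 3412, and the log2 fold change was 9.98 without empty vector replicate 1 and 11.41 without empty vector replicate 2. Only 2.28% of the 31-mers of GBP4 occur in another member, although 11.1% occur in genes outside the family.

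GBP5 (ENSG00000154451, bases 89258950 to 89272804 of chromosome 1), a furin inhibitor and inflammasome-linked member that is prenylated, was listed at 0 counts in both controls and at 285 and 239 after SAMD9, or 7.64 and 8.35 CPM. Against the floor of 3 counts over the control group it was at least 172-fold higher (adjusted p = 2.3e-12). The spread between its SAMD9 libraries was small beside that change. The bound of GBP5 and those below would be lower if both mates of a pair were counted. Only 0.291% of its 31-mers are shared with another member.

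GBP1P1 (ENSG00000225492, bases 89407679 to 89426243 of chromosome 1), the pseudogene at the far end of the cluster, also had 0 counts in both controls and had 383 and 294 with SAMD9, or 10.3 CPM in each library. It was at least 222-fold higher (adjusted p = 2.2e-13). GBP5 and GBP1P1 were 2 of the 8 genes with no control counts and over 100 counts in each SAMD9 library, a limit that was not planned. Those 8 were 0.0302% of the 26492 genes without control counts. Of the 26492, 22639 had no counts in any library and could not meet the condition. Because 22.8% of the 31-mers of GBP1P1 occur in GBP1, its counts were set against those of GBP1. They were 5.03% and 4.28% of the GBP1 counts in the SAMD9 libraries. As a share of both genes' counts, GBP1P1 held 4.47% with SAMD9 (exact Clopper-Pearson 95% interval 4.14% to 4.81%), and 0 of 74 counts with empty vector, which allows a share of up to 4.05% at 3 counts and of up to 4.86% by the exact interval. The limit at 3 counts lies just under the SAMD9 interval and the exact limit just above it, so the controls leave little room to compare the shares. These intervals cover counting error only, and both limits would be higher if both mates of a pair were counted. The part that reads of GBP1 play in the counts of GBP1P1 was not tested.

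GBP6 (ENSG00000183347, bases 89364058 to 89386461 of chromosome 1), the protein-coding member on the plus strand, was counted 0 and 2 times in the controls and 6 and 2 times after SAMD9. From summed counts of 2 and 8, the scaled ratio was 3.93 with an exact counting interval from 0.784 to 38.0, which includes 1. Its level reached at most 0.161 CPM, per length it was the lowest of the 8 members in both SAMD9 libraries, and a change was not detectable at this depth.

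Compared per gene length (RPKM, TMM-normalised CPM per kilobase of listed exonic length), the order of the members with empty vector was GBP3 at 1.01 ± 0.312, GBP2 at 0.777 ± 0.0396 and GBP1 at 0.230 ± 0.0635 RPKM (SD, n = 2 each), with the other members at or below 0.122 in each library. GBP3 and GBP2 did not differ beyond their spread, since GBP3 replicate 2 (0.786) was below GBP2 replicate 2 (0.805). With SAMD9, GBP1 led at 44.5 ± 5.06 RPKM. GBP4 at 30.1 ± 4.68 and GBP3 at 28.7 ± 1.93 followed and overlapped each other. GBP2 was at 6.01 ± 0.0509, GBP1P1 at 4.37 ± 0.000442, GBP7 at 1.04 ± 0.0604 and GBP5 at 0.982 ± 0.0613 RPKM (SD, n = 2 each), and GBP7 and GBP5 overlapped.

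The shares of GBP1, GBP2, GBP3 and GBP4 in the family's summed RPKM each took values that did not overlap between the groups. GBP3 and GBP2 together held most of that sum with empty vector, GBP3 54.3% and 40.4% and GBP2 33.1% and 41.3% in the 2 libraries. With SAMD9, GBP1 held 38.0% and 38.7%, GBP4 25.0% and 27.0%, GBP3 25.4% and 24.2%, and GBP2 5.56% and 4.88%. The RPKM of GBP1 was 0.368 and 0.231 times that of GBP2 with empty vector and 6.84 and 7.94 times with SAMD9. As a percentage of the RPKM of GBP3, GBP1 went from 22.4% and 23.6% to 149.6% and 159.8%. Neither ratio overlapped between the groups, and the exact two-sided permutation p was 0.333 for both.

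**Figure D2:**
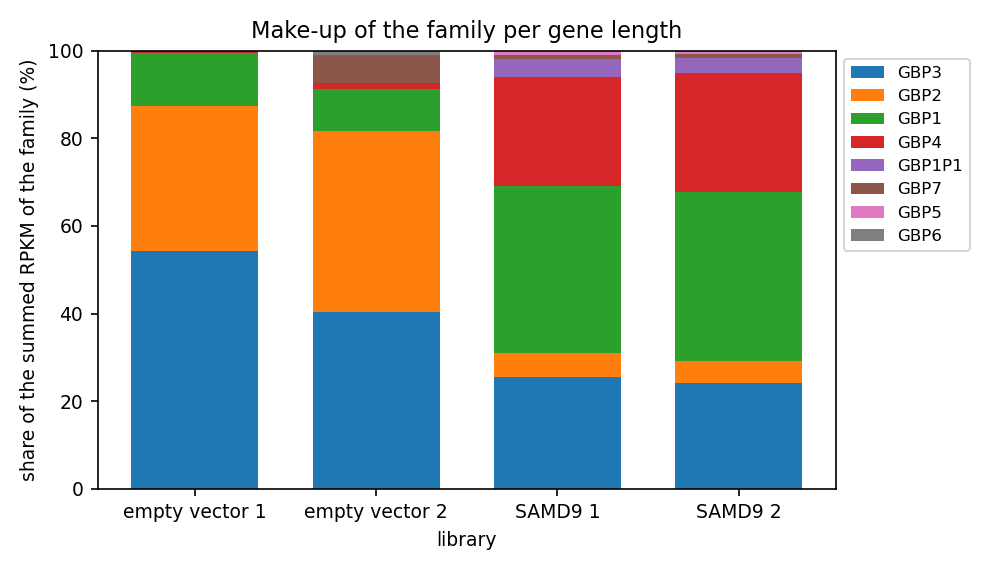
Share of each member in the summed RPKM of the family (vertical axis, percent), with 1 stacked bar per library. GBP3 and GBP2 fill most of the empty vector bars, and GBP1, GBP4 and GBP3 fill most of the SAMD9 bars, where GBP1 holds 38.0% and 38.7%.

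Over its 8 members, the family summed to 357 and 331 counts in the controls and to 20290 and 18121 after SAMD9. This was 0.00122% and 0.00105% of all counts against 0.0511% and 0.0589%, a 48.5-fold higher mean share. On TMM-normalised CPM the fold was 55.3. The groups did not overlap, and the exact two-sided permutation p was again 0.333.

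The response was also set against that of the genes around the cluster. For comparison, 15.3% of all genes tested were called higher and 12.2% lower. Of 25 other listed genes inside the cluster or within 500 kb of its ends, 9 could be tested, of which 2 rose, 1 fell and 6 did not pass. Without empty vector replicate 1, 4 of them rose. GTF2B, the gene of the general transcription factor TFIIB 115 kb from the cluster, was at 9.81 and 11.3 CPM in the controls and 21.1 and 22.7 CPM after SAMD9, and rose by 1.05 on the log2 scale (SE 0.13, adjusted p = 7.8e-07). RBMXL1, an RNA-binding protein gene 13.7 kb from GBP3, rose by 0.77 on that scale (SE 0.12, adjusted p = 4.4e-05). LRRC8D, a subunit gene of the volume-regulated anion channel 395 kb beyond GBP1P1, fell by 0.31 (SE 0.09, adjusted p = 0.0165), and this call was lost without empty vector replicate 2 (adjusted p = 0.115), SAMD9 replicate 1 (0.0517) or SAMD9 replicate 2 (0.182). Of 6 other genes inside the cluster, the 1 that could be tested, PTGES3P1, stood at 0.47 (SE 0.23, adjusted p = 0.15), and at 0.75 without empty vector replicate 2 (adjusted p = 0.029). Every tested member had a log2 fold change above that of all 9 tested neighbours, whose highest was 1.05.

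**Figure D3:**
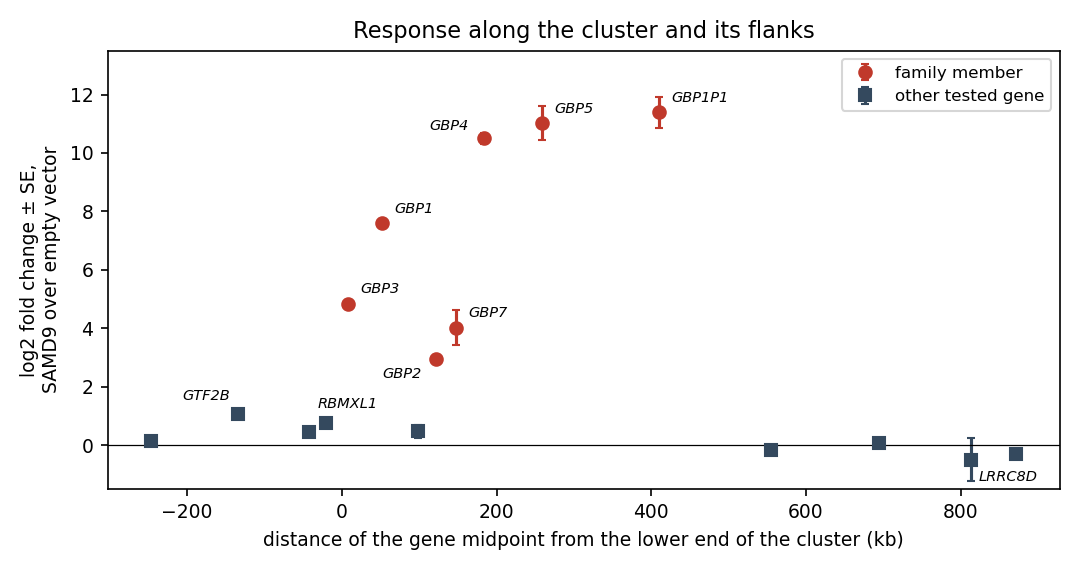
Log2 fold change of SAMD9 over empty vector with its SE (vertical axis) against the distance of each tested gene's midpoint from the lower end of the cluster in kb (red, family members; dark squares, other genes; names on members and called neighbours). Members lie between 2.95 and 11.39 and neighbours at or below 1.05; the values of GBP5 and GBP1P1 are fitted against controls without counts.

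The genes most like each member in level were taken by the Euclidean distance of log2 CPM over the 4 libraries, for the 6 members whose average log2 CPM was 1 or more. The nearest to GBP1 was TNFSF10, the gene of the death ligand TRAIL, at a distance of 0.618, followed by TRIM22 (0.766) and LAMP3 (0.898). TNFSF10 was counted 46 and 20 times in the controls and 8577 and 7101 times after SAMD9. For GBP3 they were CEACAM1 (0.729), CD38 (0.790) and the immunoproteasome subunit gene PSMB9 (0.993). GBP2 was nearest to BAHCC1 (0.334), the immunoproteasome subunit gene PSMB10 (0.345) and the Wnt receptor gene FZD4 (0.358). The chemokine gene CCL5 (0.652), the tryptophan-degrading enzyme gene IDO1 (1.41) and the interferon lambda gene IFNL2 (1.60) were nearest to GBP4. GBP1P1 and GBP5 were nearest to the same 3 genes, RUFY4, ZBP1 and IFNL4, at distances of 0.0818 to 0.186 for GBP1P1 and 0.338 to 0.699 for GBP5. All 3 had no counts in the controls. The control values of all such genes are the same, so these distances rest on the SAMD9 libraries.

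Of 15 genes listed for their known links to GBP induction, 14 rose and 1 fell (median log2 fold change 1.97). Beside this list and those below, 15.3% of all genes tested were called higher and 12.2% lower. The part of the listed genes in the rise of the GBPs was not tested. Interferon regulatory factor 1, encoded by IRF1, is a known activator of GBP promoters. IRF1 went from 940 and 993 counts in the controls to 25781 and 18487 after SAMD9 (log2 fold change 4.48, SE 0.07). BATF2, a partner of IRF1 in interferon responses, went from 93 and 93 counts to 8040 and 6135 (6.22, SE 0.10). STAT2, a transducer of type I and type III interferon signals, rose by 4.12 on the log2 scale (SE 0.07, edgeR adjusted p = 2.0e-22), the highest adjusted p of these 3. IRF8, a myeloid factor, absent from both controls, reached 36 and 36 counts, and was at least 23.6-fold higher. JAK1, the receptor kinase gene, fell by 0.26 (SE 0.06, adjusted p = 0.0023), a call lost without SAMD9 replicate 1 (adjusted p = 0.0565).

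Genes that attach the lipid anchor of GBPs or hold it in the cytosol changed little. Of 14 genes, 5 rose, 0 fell and 9 did not pass (median 0.09). At an unadjusted p below 0.05, and also with DESeq2, 0 of the 14 were lower. The farnesyltransferase subunit gene FNTA rose by 0.29 (SE 0.09, edgeR adjusted p = 0.026), a call lost with DESeq2 (adjusted p = 0.052), with total-count scaling (0.457), without SAMD9 replicate 2 (0.350) and without empty vector replicate 2 (0.0875). FNTB, its partner subunit gene, stood at 0.15 (SE 0.12, adjusted p = 0.41), and PGGT1B, which encodes a subunit of the other prenyltransferase, at 0.01 (SE 0.13, adjusted p = 0.97). Of the 4 genes with the lowest p-values of the list, PIM1, the kinase that phosphorylates GBP1, rose by 0.33 (SE 0.07). The others were 14-3-3 genes, whose proteins retain phosphorylated GBP1. YWHAH rose by 0.39 (SE 0.06), SFN by 0.30 (SE 0.06) and YWHAG by 0.18 (SE 0.05). These small values depended on the scaling: with total counts in place of TMM, which shifted the median gene by -0.19, 1 of the 14 rose and 5 fell, the calls of PIM1 and SFN were lost (adjusted p = 0.107 and 0.171), and YWHAG was at -0.0097. The call of YWHAG was also lost without SAMD9 replicate 1 (adjusted p = 0.0750) or SAMD9 replicate 2 (0.224).

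Inflammasome genes downstream of GBP coats were split between detected and undetected ones. Of 18 listed genes, 11 could be tested, of which 6 rose, 1 fell and 4 did not pass (median 1.91). CASP4, the caspase that GBP coats activate, went from 229 and 248 counts to 1604 and 1191 (log2 fold change 2.52, SE 0.11). Its substrate GSDMD, the pore-forming gasdermin gene, rose by 1.98 (SE 0.14). CASP1 went from 2 and 2 counts to 418 and 423, a scaled ratio of summed counts of 207 with a counting interval from 80.4 to 760. CARD16, an inhibitor gene of CASP1, was absent from both controls and had 42 and 12 counts after SAMD9, at least 17.7-fold higher. Without SAMD9 replicate 1, CARD16 no longer passed the filter on low counts and the bound was 9.05-fold. The sensor genes AIM2 and NLRP3 and the adaptor gene PYCARD had at most 13 counts in any library. Other sensor genes of the list could be tested. NLRP1, NAIP and NLRC4 did not pass (edgeR adjusted p = 0.085, 0.63 and 0.13). MEFV, with 2 and 0 counts in the controls and 14 and 14 after SAMD9, was called higher (adjusted p = 0.018). IL18, a cytokine substrate of these caspases, fell by 0.26 on the log2 scale (SE 0.07, adjusted p = 0.0069), a call lost without SAMD9 replicate 1 (adjusted p = 0.0825) or SAMD9 replicate 2 (0.0887). Without SAMD9 replicate 1, 3 genes of the list rose.

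Partners of GBPs in the defence of vacuoles and cytosol rose in 13 of 19 tested cases and fell in 2 (median 0.95). RNF213, a giant ubiquitin ligase that marks bacteria, went from 15045 and 15964 counts to 178640 and 142504 (log2 fold change 3.35, SE 0.05). The apolipoprotein L genes APOL1 and APOL2 rose by 5.46 (SE 0.10) and 4.55 (SE 0.07), and the galectin gene LGALS9 by 5.06 (SE 0.17). APOL3, whose product acts after GBP1 on bacterial membranes, went from 2 and 0 counts to 529 and 544, a scaled ratio of 527 (counting interval 146 to 4357). The fitted log2 fold change of APOL3 was 8.90, and it was 12.10 without empty vector replicate 1, which leaves a control with no counts, and 7.93 without empty vector replicate 2. FURIN, the protease that GBP2 and GBP5 inhibit, fell by 0.34 on the log2 scale (SE 0.07, adjusted p = 0.00058), and ATG16L1 fell by 0.49 (SE 0.08). The call of FURIN was lost without SAMD9 replicate 2 (adjusted p = 0.0577).

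Among other GTPases of the interferon response and the dynamin superfamily, 5 of 18 tested genes rose, 4 fell and 9 did not pass (median 0.01). The antiviral dynamin-like genes MX1 and MX2 rose by 7.12 (SE 0.09) and 7.27 (SE 0.16), MX1 from 438 and 363 counts to 61462 and 51745 and MX2 from 36 and 18 to 4403 and 4027. Without empty vector replicate 1 the log2 fold change of MX2 was 7.90. EHD4 and EHD1, genes of endosomal membrane remodelling, rose by 2.13 (SE 0.07) and 0.38 (SE 0.06). The atlastins, endoplasmic reticulum fusion GTPases that are the relatives closest to GBPs in fold, were at 0.01 for ATL1 (SE 0.19, adjusted p = 0.98), -0.27 for ATL2 (SE 0.08, adjusted p = 0.011) and -0.16 for ATL3 (SE 0.06, adjusted p = 0.058). The call of ATL2 was lost without SAMD9 replicate 1 (adjusted p = 0.123) or SAMD9 replicate 2 (0.0952). IRGM, the immunity-related GTPase gene, had at most 9 counts in any library. Under total-count scaling 9 of the 18 fell, and without SAMD9 replicate 2 just 1 did.

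**Figure D4:**
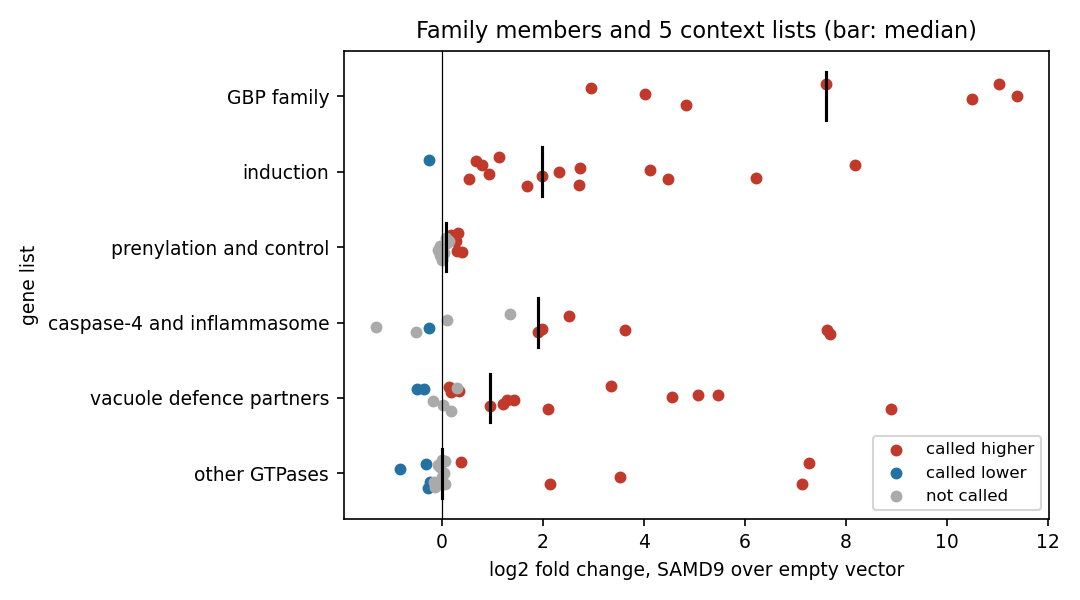
Log2 fold change of SAMD9 over empty vector (horizontal axis) for the tested members of the GBP family and of 5 lists of related genes (rows), coloured by call, with a bar at each median. The family spans 2.95 to 11.39, and the other GTPases centre on 0.01 with MX1 and MX2 far to the right; genes without control counts are at fitted values.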

How the data were processed

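Raw counts per gene in 4 libraries were used as deposited. The authors also deposited CPM (counts scaled to a fixed library total) and RPKM (CPM per kilobase of listed length) values, which matched the counts and were not tested. The submitters' processing notes list GRCh38 as build, featureCounts 1.4.6-p5 (Subread), STAR 2.5.1a and bcl2fastq. How strand, overlaps and multi-mapping were set is not given in the sources used here. Symbols came from a gene name table and GENCODE 29. In counts from 1 to 20, 72.9% were even, against 49.7% above 1000, as when both mates of a pair are counted. Counting intervals may thus be too narrow, and lower bounds for genes without control counts too high.

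Genes were kept with filterByExpr (minimum count 10, total 15; 19814 genes) and normalised by TMM. edgeR 4.0.16 (R 4.3.3) compared the groups by quasi-likelihood test without covariates, with Benjamini-Hochberg adjustment over all genes. SE is the absolute log2 fold change over the square root of F. The labels do not say that replicates were separate cultures, so p-values measure the spread between libraries, which may be technical. Neither replicate pair agreed within sampling noise (chi-square per degree of freedom 9.35 and 5.00). Genes without control counts were bounded against 3 counts over the group. Shared sequence was counted as 31-mers of GENCODE 29 transcripts. The planned comparison of GBP protein sequences was not analysed here. Members and lists were chosen with earlier results of these data known. Named genes were all members, the 3 nearest genes of each member, the 4 lowest p-values of each list and called neighbours, of which 1 is not reported here. Others were named after their values were seen: IRF8, JAK1, FNTA, FNTB, PGGT1B, AIM2, NLRP3, PYCARD, NLRP1, NAIP, NLRC4, MEFV, IL18, APOL3, FURIN, ATG16L1, IRGM, PTGES3P1, the atlastins and the markers. Alternatives were total-count and RLE scaling, DESeq2 1.42.0, no filter, a replicate block and leaving out each library.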

Additional observations from a re-analysis of the deposited data

How the results depend on the processing

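The 7 tested members kept their direction and call in 62 of 63 pairings of a member with an alternative, and the exception was GBP7 with DESeq2 (4.09, adjusted p = 0.134). Leaving out each library in turn gave log2 fold changes from 7.33 to 7.90 for GBP1, 2.90 to 3.01 for GBP2, 4.55 to 5.19 for GBP3, 9.98 to 11.41 for GBP4 and 3.08 to 9.37 for GBP7. Total-count scaling gave 1974 higher and 5653 lower genes, against 3038 and 2420, and in the lists 1 higher and 5 lower of the prenylation and control genes and 9 lower other GTPases, 2 lower neighbours, and reversed signs for ATL1 (-0.18), PGGT1B (-0.18), FNTB (-0.038) and YWHAG (-0.0097). Without 1 library, the lower genes ranged from 1466 to 2279, the higher neighbours from 2 to 4 and the lower ones from 0 to 1. The prenylation list then had 3 to 5 higher, inflammasome genes 3 to 6 higher and 0 to 1 lower, induction genes 0 to 1 lower, vacuole partners 1 to 2 lower and other GTPases 1 to 4 lower, and ATL1 ranged from -0.15 (without SAMD9 replicate 2) to 0.18 and PGGT1B from -0.075 (without empty vector replicate 2) to 0.10, also below 0 without SAMD9 replicate 2 (-0.033). GBP1's share of the family with SAMD9 was 37.7% without division by length and 39.9% without the pseudogene, against 38.4%. The ISRE count went from 0 members to 3 with the shorter core. With the replicate number as a block, 2914 genes were higher and 2330 lower and all 7 members kept their calls. Same-numbered libraries did not deviate together (r = 0.00118), which cannot show whether they shared a day or culture, and the labels do not say. The causes were not tested. Depth limits GBP6, GBP7 and the control levels of GBP4, GBP5 and GBP1P1.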
